A study of Mus musculus with 9 samples.

Results

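The TRPM channels are a branch of the transient receptor potential family of cation channels, and *Trpm1* to *Trpm7*, 7 of the 37725 genes in the deposited matrix, were followed here through the cell types of the mouse retina. *Trpm3* carries the gene of miR-204 in one of its introns and *Trpm1* carries the gene of miR-211, which makes both channels hosts of the microRNAs deleted in this study. The 7 genes were taken by name, with no use of their measured values.

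Single-cell RNA-sequencing was performed on retinas of 9 mice that carried the transgene RPE65-ERT2-Cre together with floxed alleles named miR-211fl and miR-204fl, with a sampling time of 6 months in the labels. The labels give controls and dKO mice the same genotype, and by these labels tamoxifen and the deletion cannot be told apart. For imaging and electrophysiology the study describes its controls as tamoxifen-treated mice without Cre, which is not what the labels of these samples state. The tamoxifen-dependent Cre is driven by the *Rpe65* promoter in the retinal pigment epithelium (RPE), a pigmented layer behind the photoreceptors. The 4 control mice (S01 to S04) received corn oil and the 5 double knockout (dKO) mice (S05 to S09) received tamoxifen in corn oil at 75 mg/kg, both for 5 days from postnatal day 28. For sequencing, the methods of the study describe dissociation of retinal tissue after removal of the anterior chamber and lens. They describe no separate step to collect RPE cells. Neither *Mir204* nor *Mir211* was among the gene names of the matrix, and the deletion itself could not be checked.

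TRPM1 is the channel that opens when mGluR6 signalling falls in ON bipolar cells, and it is also named melastatin for its expression in pigment cells. TRPM3 is a calcium-permeable channel that responds to heat and to pregnenolone sulfate, and TRPM2 opens with ADP-ribose and oxidative stress. TRPM4 and TRPM5 pass monovalent cations when intracellular calcium rises, while TRPM6 and TRPM7 join a channel to a kinase domain and take part in magnesium handling. In the retina, mGluR6 and its G protein keep TRPM1 closed in the dark, and light opens it.

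The mature microRNAs of both hosts are shown because they define the alleles deleted and share a seed (sequences from RefSeq with the build GRCm38.p6, with bases 2 to 8 in capitals as the seed).
miR-204-5p, host Trpm3: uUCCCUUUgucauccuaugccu
miR-211-5p, host Trpm1: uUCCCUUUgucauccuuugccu
miR-204-3p, host Trpm3: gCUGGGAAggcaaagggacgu
miR-211-3p, host Trpm1: gCAAGGACagcaaaggggggc
The 5p arms had the same seed and were identical at 21 of 22 positions, with the substitution A17U from miR-204-5p to miR-211-5p, counted from 1 at the 5′ end. The seeds of the 3p arms differed from each other.

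Matched to GRCm39, miR-204-5p lay on chr19:22727974-22727995 and miR-211-5p on chr7:63855579-63855600, both on the plus strand and thus on the strand of their hosts. *Trpm3* (ENSMUSG00000052387) spanned 856 kb on chromosome 19 and *Trpm1* (ENSMUSG00000030523) spanned 118 kb on chromosome 7. In the transcript that GENCODE marks as canonical for *Trpm3*, Trpm3-206, the microRNA was found in the intron between exons 7 and 8 of 26, 759 bases after the start of an intron of 16788 bases. In the canonical *Trpm1* transcript, Trpm1-224, it was found between exons 6 and 7 of 25.

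Matches to the shared seed were searched on the sense strand in annotated 3′-UTRs of the 7 genes, as AAAGGGA (a 7mer-m8 match, pairing with bases 2 to 8) and as AAAGGGAA (an 8mer, the same letters followed by A). One match each was found in *Trpm1* and *Trpm2* and none in the other 5, and a match to AAAGGGA was present in 4473 of 21522 genes with a 3′-UTR (20.8%). The *Trpm1* match lay in 5 of 17 coding transcripts with a 3′-UTR and the *Trpm2* match in 8 of 10. The matches are shown in capitals within 30 bases of the transcript strand.
Trpm1, chr7:63920591-63920598, plus strand, 8mer: gtttaaaagaaAAAGGGAAcaaaggagatg
Trpm2, chr10:77745078-77745084, minus strand, 7mer-m8: ctggttcccagAAAGGGAggtggtctgatt
A match is a description of these letters and not a measured site.

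Cells were assigned to types by thresholds on summed marker UMIs, none of which was a *Trpm* gene, and 27756 of 31089 cells fell into 16 types. Unique molecular identifiers (UMIs) count captured RNA molecules, and levels are given as CPM, the UMIs of a gene as counts per 1000000 UMIs in the summed cells of a mouse, for mice with at least 10 cells of the type. Most marker genes held out for checking were highest in their own type. The largest exceptions were *Lrit3* in ON cone bipolar-like and *Nfia* in OFF cone bipolar-like cells, for which the own type ranked 9 of 16, and *Rnd3* in starburst amacrine-like cells, where it ranked 8. S04, S05 and S07 stood apart, with 4775 to 5412.5 UMIs per cell at the median against 8118 or more in the others, a rod share of 70.6% to 86.1% against 31.3% to 44.6%, and Y-linked RNA of 404 CPM or more against 4.96 CPM or less. The labels give S06 and S07 the same animal number. S06 had 4.43 CPM of Y-linked RNA and a log2 *Xist* CPM of 10.4. S07 had 404 CPM and 5.57, and they were treated as different mice. By these RNAs S04, a control, and S05 and S07, both dKO, were male and the others female. Sex could thus not be told apart from depth and rod share.

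The 7 channels differed widely in level, and each of the abundant ones had its own pattern over cell types. Over all cells, *Trpm3* had 724415 UMIs, *Trpm1* 247367, *Trpm7* 78682, *Trpm2* 4660, *Trpm4* 3491, *Trpm6* 1332 and *Trpm5* 85. Counts in this assay can include unspliced RNA, so the leading channel of a type is named per length of exons or of the whole gene. UMIs and CPM of different genes given side by side elsewhere are not corrected for length. Per kb of exon, *Trpm3* led in RPE-like cells with 722 ± 199 CPM per kb (SD, n = 7) and *Trpm1* led in rod bipolar-like cells with 468 ± 34.2 CPM per kb (SD, n = 9). *Trpm7* led in rod-like cells with 20.01 ± 0.949 CPM per kb of exon (SD, n = 9). Each of these leads was also found per kb of gene span, where *Trpm3* had 20.8 ± 5.72 CPM per kb in RPE-like cells, *Trpm1* 69.8 ± 5.10 in rod bipolar-like cells and *Trpm7* 2.69 ± 0.127 in rod-like cells.

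**Figure D1:**
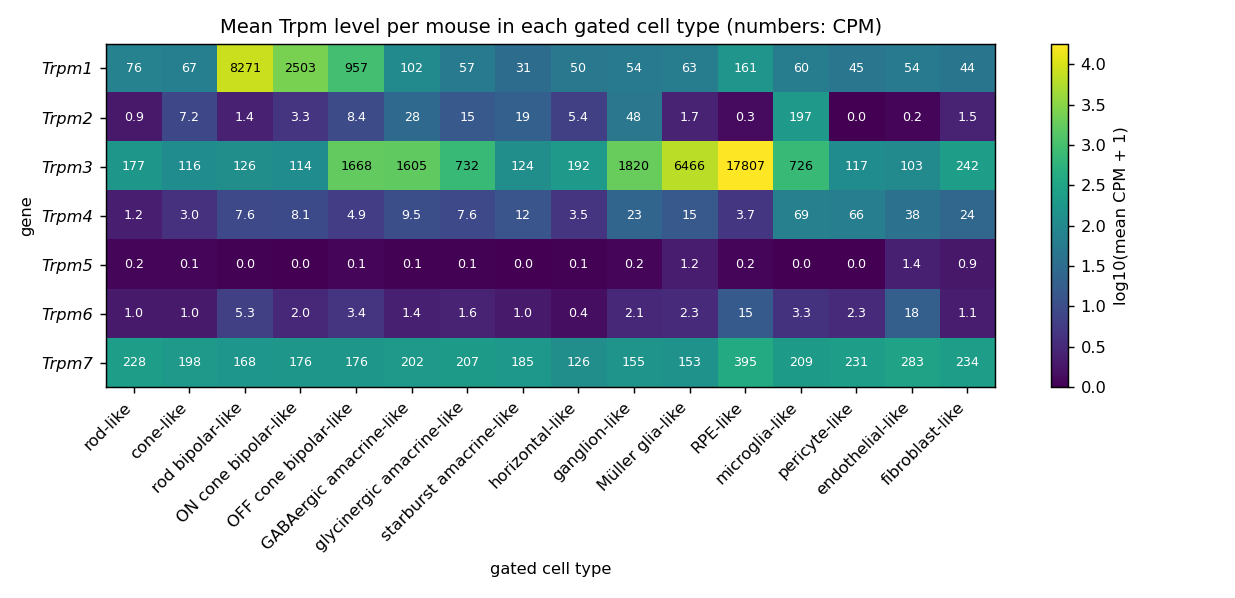
Mean level of each *Trpm* gene (rows) in each gated cell type (columns), with the color as log10(mean CPM + 1) and the printed number as the mean CPM over mice with at least 10 cells of the type. *Trpm1* was highest in rod bipolar-like cells (8271 CPM), *Trpm3* in RPE-like cells (17807 CPM), and *Trpm7* was between 126 and 395 CPM in every type.

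*Trpm1* was concentrated in bipolar-like cells, and its level fell in steps from rod bipolar-like over ON cone bipolar-like to OFF cone bipolar-like cells. In rod bipolar-like cells, which carry the scotopic ON signal, the control mice had 8553, 8017, 8700 and 8904 CPM and the dKO mice 7395, 8283, 7230, 8612 and 8743 CPM. The groups overlapped, and the lowest values were those of S05 and S07, with 15 and 37 cells. In ON cone bipolar-like cells the control mice had 2563, 2496, 2599 and 2606 CPM and the dKO mice 2151, 2495, 2514, 2516 and 2590 CPM, with S05 below all others. In OFF cone bipolar-like cells, which hyperpolarize to light through ionotropic glutamate receptors, the control mice had 803, 1115, 917 and 1275 CPM and the dKO mice 932, 807, 640, 1038 and 1090 CPM. The 3 types did not overlap in any mouse.

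Over all mice, *Trpm1* was 8271 ± 604 CPM in rod bipolar-like, 2503 ± 139 in ON cone bipolar-like and 957 ± 193 in OFF cone bipolar-like cells (SD, n = 9). Each step down held in 9 of 9 mice, with a mean log2 difference of 1.72 ± 0.0803 from rod bipolar-like to ON cone bipolar-like cells and of 1.41 ± 0.303 from ON cone bipolar-like to OFF cone bipolar-like cells (SD). By an exact sign-flip permutation test over mice, two-sided, both steps had p = 0.00391, the smallest the test can give, and 0.0293 after Benjamini-Hochberg adjustment over the 15 neighbours in the order. The next neighbour, RPE-like cells at 161 ± 89.5 CPM (n = 7), was below OFF cone bipolar-like cells in 7 of 7 mice (exact p = 0.0156, adjusted 0.0781). From RPE-like cells down, no pair of neighbours passed the adjusted test, and the other 12 types had means between 30.8 and 102 CPM. In edgeR's quasi-likelihood test with mouse as a block and adjustment over 17040 genes, *Trpm1* was higher in rod bipolar-like than in OFF cone bipolar-like cells by a log2 difference of 3.22 (SE 0.27, adjusted p = 2.25e-20) and higher in ON cone bipolar-like than in OFF cone bipolar-like cells by 1.43 (SE 0.25, adjusted p = 1.82e-06).

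*Trpm1* UMIs were also found outside the bipolar-like and RPE-like cells, and the level there is called the floor here. Its source was not tested. In rod-like cells, 23.6% of 15611 cells had at least 1 *Trpm1* UMI (95% Clopper-Pearson interval 22.9% to 24.2%) at a median of 4718 UMIs per cell. Shares depend on depth, and cells were therefore also thinned to 3000 UMIs each, leaving out shallower ones. On that footing 100% of rod bipolar-like, 84.5% of ON cone bipolar-like, 71.8% of OFF cone bipolar-like and 25.9% of RPE-like cells kept a *Trpm1* UMI, against 14.8% of rod-like cells and 7.14% to 15.0% over the 12 types below RPE-like cells. The unthinned shares were 100%, 89.9%, 89.9% and 58.8% for the same 4 types, and 3134 rod-like and 65 RPE-like cells were too shallow to be thinned.

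The level of *Trpm1* varied little among rod bipolar-like cells and much among the other bipolar-like cells. The 10th, 50th and 90th percentiles over cells were 58.1, 86.0 and 117 *Trpm1* UMIs per 10000 UMIs of the cell in rod bipolar-like cells. The same percentiles were 0.0942, 21.0 and 53.8 in ON cone bipolar-like cells, and 0, 6.89 and 20.5 in OFF cone bipolar-like cells. In ON cone bipolar-like cells 75.1% of cells had at least 10 *Trpm1* UMIs, against 99.7% of rod bipolar-like and 49.0% of OFF cone bipolar-like cells.

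**Figure D2:**
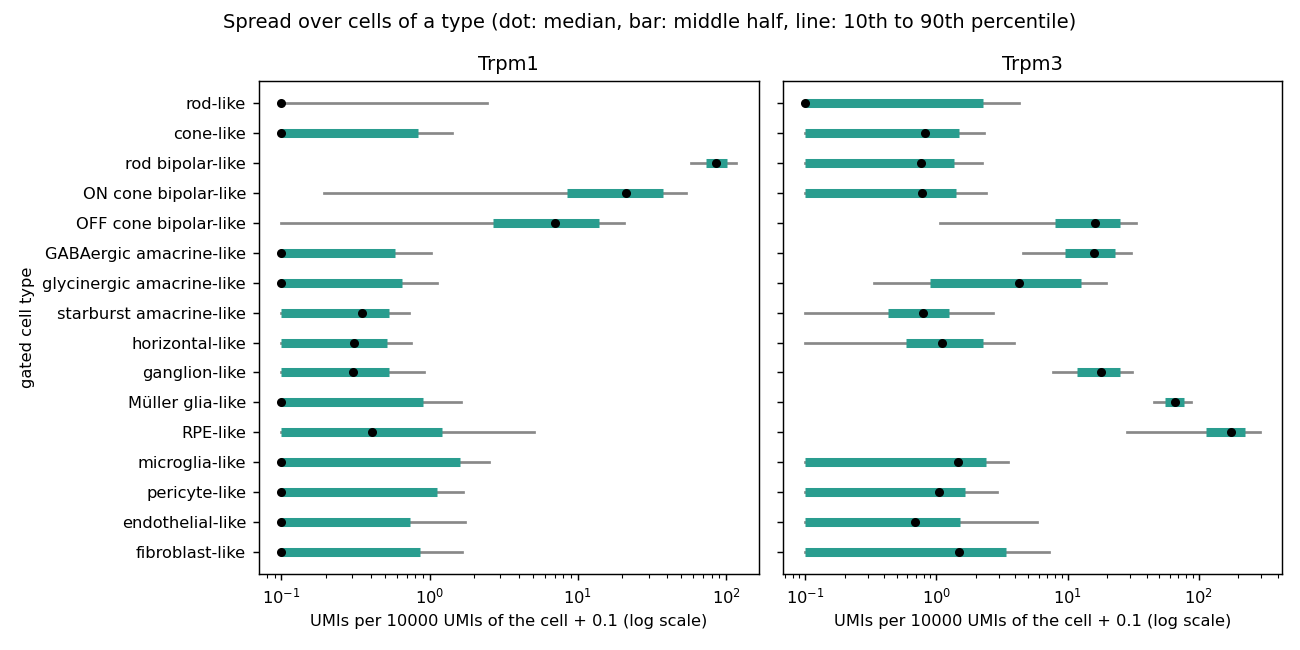
Spread of *Trpm1* (left) and *Trpm3* (right) over the single cells of each gated type, in UMIs per 10000 UMIs of the cell plus 0.1 on a log axis. Dots are medians, thick bars the 25th to 75th percentile and thin lines the 10th to 90th percentile. *Trpm1* was narrowly spread in rod bipolar-like cells (58.1 to 117 per 10000) and *Trpm3* in Müller glia-like cells (45.6 to 87.5), while *Trpm3* in glycinergic amacrine-like cells ran from 0.235 to 19.6.

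Within OFF cone bipolar-like cells, *Trpm1* and *Trpm3* differed in opposite directions by *Tacr3*, which encodes the neurokinin 3 receptor and marks a subset of OFF cone bipolar cells. The split was chosen after the values were seen, *Tacr3* was also 1 of the markers of the gate, and the values are given without a test. In 548 cells with at least 2 *Tacr3* UMIs, *Trpm1* was 1345 ± 220 CPM and *Trpm3* 1370 ± 158 CPM (SD, n = 8 mice). In the other 582 cells, *Trpm1* was 417 ± 89.5 CPM and *Trpm3* 1971 ± 201 CPM. *Trpm1* ranged from 981 to 1691 CPM with *Tacr3* and from 267 to 514 CPM without, so that the sets did not overlap. *Trpm3* ranged from 1035 to 1564 CPM with *Tacr3* and from 1673 to 2157 CPM without. Of the 1130 cells of the type, 421 (37.3%) had at least 10 UMIs of both channels, 133 (11.8%) of *Trpm1* alone and 467 (41.3%) of *Trpm3* alone. In ON cone bipolar-like cells 11 of 1033 and in rod bipolar-like cells 20 of 913 had at least 10 UMIs of both.

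**Figure D3:**
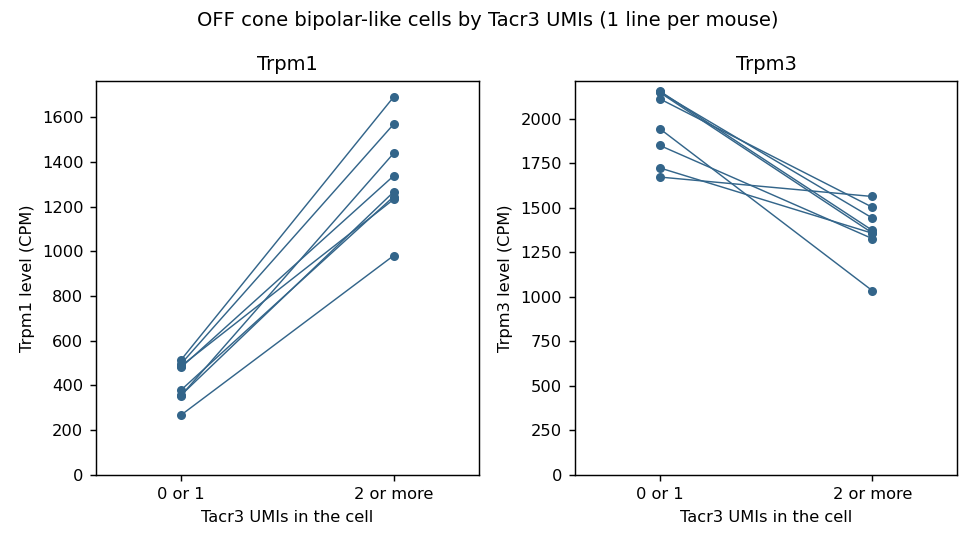
Level in CPM of *Trpm1* (left) and *Trpm3* (right) in OFF cone bipolar-like cells with 0 or 1 and with 2 or more *Tacr3* UMIs, with 1 line per mouse for the 8 mice with at least 10 cells in both sets. *Trpm1* rose from 267 to 514 CPM up to 981 to 1691 CPM, and *Trpm3* went from 1673 to 2157 CPM down to 1035 to 1564 CPM.

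In RPE-like cells, the cells in which Cre is driven, *Trpm1* was low and uneven. S01, S02 and S03 had 60.8, 267 and 181 CPM, and S06, S07, S08 and S09 had 286, 80.7, 94.8 and 157 CPM. S04 had no RPE-like cell and S05 had 3, and both were left out. The mean of 161 ± 89.5 CPM exceeded that of each type outside the bipolar-like cells, and edgeR's quasi-likelihood test put it above the mean of the other 15 types by a log2 difference of 0.76 (SE 0.23, adjusted p = 0.00309). That call was lost without S06 (0.56, adjusted p = 0.0771) and without TMM normalization (0.52, adjusted p = 0.0547). Of the 308 RPE-like cells, 127 had no *Trpm1* UMI, while 35 cells with at least 10 UMIs (11.4%) held 79.3% of the 1844 UMIs. The limit of 10 was chosen after the values were seen, with 2 cells at 9 and 2 cells at 10 UMIs. It is a limit on raw UMIs and favours cells with large libraries, so that the 2 percentages overstate the unevenness. Without the 35 cells, *Trpm1* was 49.6 CPM over the pooled RPE-like cells. S01, S02, S03, S06, S08 and S09 had 4, 6, 8, 11, 2 and 3 such cells, S05 had 1 and S07 had 0, or 18 cells in control and 17 in dKO mice.

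The RPE-like cells with *Trpm1* were examined for RNA of bipolar cells and of melanocytes. Of the 35 cells, 7 had at least 100 UMIs of *Prkca*, which encodes the protein kinase C of rod bipolar cells, and these 7 had a median of 135792 UMIs per cell and 14.9 CPM of *Grm6*, the mGluR6 receptor. The other 28 cells had 540 CPM of *Trpm1* with 328 CPM of *Prkca* and 2.24 CPM of *Grm6*, against 374 and 2.47 CPM of the same genes in the 273 RPE-like cells with fewer *Trpm1* UMIs. In the 28 cells *Rpe65*, the retinoid isomerase of the visual cycle, was 4712 CPM and *Trpm3* 18778 CPM, against 5567 and 19380 CPM in the 273 cells. *Dct*, a pigment synthesis enzyme of RPE and melanocytes, was 1241 CPM in the 28 cells and 319 CPM in the 273, *Mlana* 16.2 and 4.42 CPM, *Sox10* 45.3 and 50.9 CPM and *Mitf* 643 and 710 CPM. The melanocyte receptor gene *Mc1r* had 1 UMI in all RPE-like cells. *Kit*, also checked as a melanocyte gene, had 214 UMIs, or 19.5 CPM over the pooled cells. It had 7.41 CPM in Müller glia-like and 9.30 CPM in fibroblast-like cells. *Sox10* had 542 UMIs, or 49.5 CPM, against 0.160 and 0.300 CPM in the same 2 types. The 28 cells were also larger libraries, with a median of 44989 UMIs against 15592, and the part of depth or of other cells in this set was not tested. Over the RPE-like type, 41.0 *Trpm1* UMIs were found per *Grm6* UMI. The ratio was 15.8 in rod bipolar-like, 8.92 in rod-like, 13.1 in Müller glia-like and 21.5 in endothelial-like cells. It was 41.0 in pericyte-like cells, from 1 *Grm6* UMI. Over all types it ran from 4.97 in ON cone bipolar-like to 170 in OFF cone bipolar-like cells. *Grm6* was a marker of the ON gate, so these ends depend on the gates. Per *Prkca* UMI, RPE-like cells had 0.375 and Müller glia-like cells 0.380 *Trpm1* UMIs. For the other genes compared, RPE-like cells had 76.8 per *Pcp2*, 132 per *Gng13*, 32.4 per *Isl1*, 54.2 per *Nyx* and 19.0 per *Car8* UMI. Müller glia-like cells had 29.1, 53.9, 12.0, 28.3 and 9.36 in the same order. *Pcp2* and *Gng13* had 24 and 14 UMIs in RPE-like cells. The source of the *Trpm1* UMIs in RPE-like cells was not tested.

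*Trpm3* was highest in RPE-like cells, followed by Müller glia-like cells, and was also found in ganglion-like, OFF cone bipolar-like and amacrine-like cells. In RPE-like cells S01, S02 and S03 had 16477, 19633 and 17236 CPM, and S06, S07, S08 and S09 had 19355, 8712, 25117 and 18118 CPM. S07, with 11 cells and 24792 UMIs in all, was far below the others, and S08 above them. Rod marker RNA made up 0.303% of the RPE-like UMIs of S07 and 0.0331% to 0.0532% of those of the other 6 mice, and its part in the low value was not tested. In Müller glia-like cells, the radial glia of the retina, the control mice had 6595, 6440, 6517 and 6407 CPM and the dKO mice 5586, 6473, 6933, 6775 and 6471 CPM. The spread was small, with S05 lowest, and the groups overlapped.

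*Trpm3* was 17807 ± 4900 CPM in RPE-like cells (SD, n = 7; 19323 ± 3085 without S07) and 6466 ± 373 CPM in Müller glia-like cells (SD, n = 9). It was higher in RPE-like cells in 7 of 7 mice, by a mean log2 difference of 1.37 ± 0.495 (SD; exact sign-flip permutation p = 0.0156, the smallest possible, and 0.0586 adjusted over 15 neighbours). In edgeR's quasi-likelihood test the difference was 1.58 (SE 0.21, adjusted p = 1.17e-10), with 1.44 to 1.76 over the alternatives run. The step from Müller glia-like to ganglion-like cells, the output neurons of the retina, held in 8 of 8 mice with a mean log2 difference of 1.84 ± 0.210 (SD, exact p = 0.00781, adjusted 0.0391). Ganglion-like cells had 1820 ± 216 CPM (n = 8), OFF cone bipolar-like cells 1668 ± 153 CPM (n = 9) and GABAergic amacrine-like cells 1605 ± 74.2 CPM (n = 9), and the neighbours among these 3 did not differ beyond their spread (adjusted exact permutation p = 0.254 and 0.337). Glycinergic amacrine-like cells, at 732 ± 263 CPM, were lower than GABAergic ones in 9 of 9 mice (exact p = 0.00391, adjusted 0.0391).

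The low levels of *Trpm3* followed. Fibroblast-like, horizontal-like, rod-like, rod bipolar-like, starburst amacrine-like, pericyte-like, cone-like, ON cone bipolar-like and endothelial-like cells had means between 103 and 242 CPM. After thinning to 3000 UMIs, 100% of RPE-like and Müller glia-like cells and 85.7% of OFF cone bipolar-like cells kept a *Trpm3* UMI, against 29.6% of rod-like and 21.9% of ON cone bipolar-like cells. Microglia-like cells had 726 ± 1021 CPM in 3 mice, but in S06, the highest, 1 cell held 167 of 178 UMIs, and without that cell S06 had 165 CPM. Glycinergic amacrine-like cells were uneven, with 44.3% of 1081 cells at 10 or more *Trpm3* UMIs, against 89.7% of GABAergic amacrine-like cells. ON and OFF cone bipolar-like cells differed by a log2 difference of -3.87 (SE 0.23, adjusted p = 6.10e-30, edgeR), the opposite direction to *Trpm1*.

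**Figure D4:**
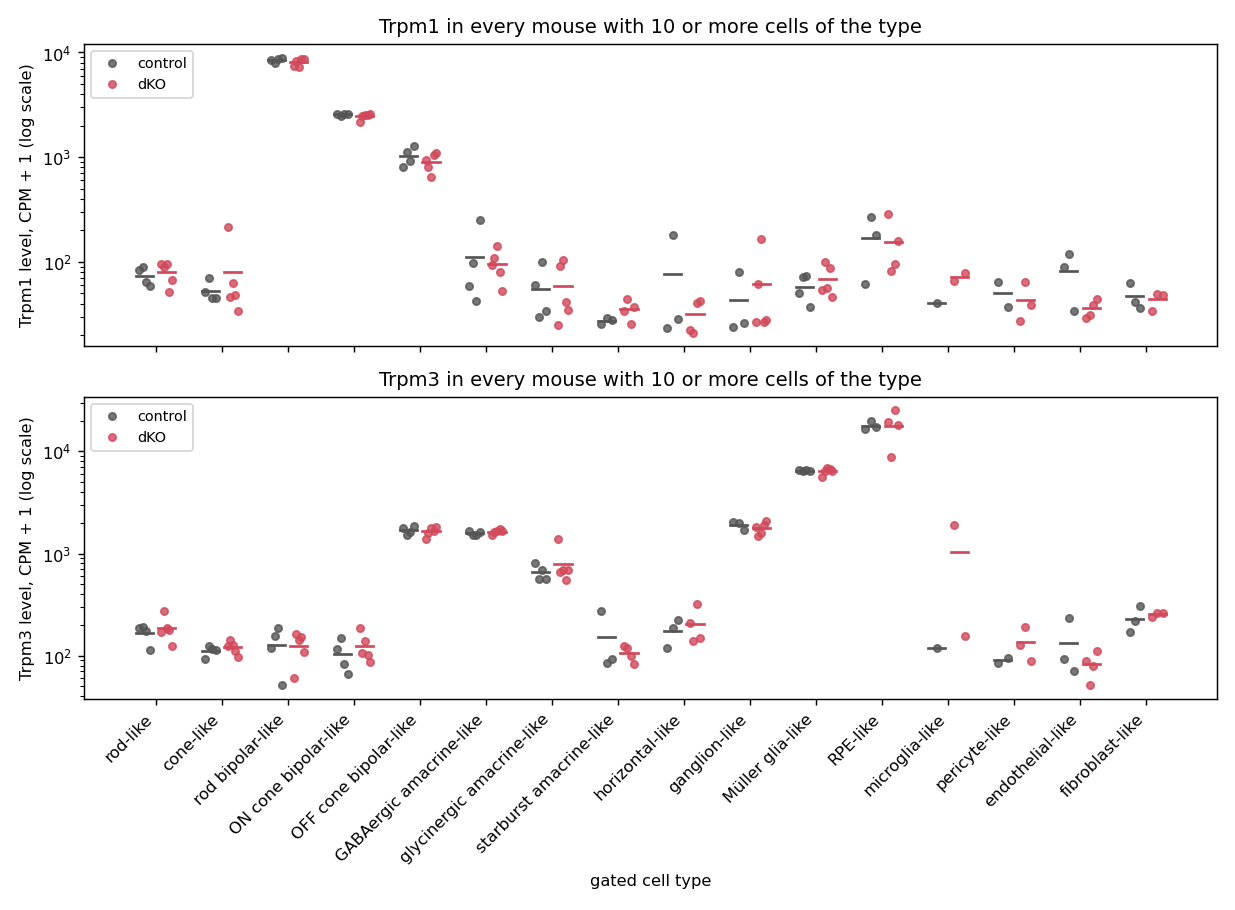
Level of *Trpm1* (top) and *Trpm3* (bottom) in every mouse with at least 10 cells of the type, as CPM + 1 on a log axis, for control (gray) and dKO (red) mice, with a bar at the group mean. *Trpm1* fell from 8271 CPM in rod bipolar-like to 957 CPM in OFF cone bipolar-like cells, *Trpm3* peaked in RPE-like cells at 17807 CPM with S07 at 8712 CPM, and in neither gene did the groups separate in the bipolar-like, Müller glia-like or RPE-like cells.

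*Trpm2*, *Trpm4*, *Trpm5* and *Trpm6* had far fewer UMIs than the hosts and *Trpm7*. *Trpm2* was 197 ± 70.9 CPM in microglia-like cells (SD, n = 3), with 254 CPM in S02, 118 in S06 and 220 in S08. Ganglion-like cells had 47.8 ± 12.0 CPM of *Trpm2* (n = 8) and GABAergic amacrine-like cells 27.7 ± 4.00 CPM (n = 9), and the former were higher in 8 of 8 mice (exact sign-flip permutation p = 0.00781, adjusted 0.0586). No *Trpm2* UMI was found in 110 pericyte-like cells, so that at most 2.73% of such cells would carry a UMI by counting error alone. Since a type at 0 sets the mean of the others, fitted contrasts of *Trpm2* with that mean are not given.

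*Trpm4* was found in the vascular and supporting cells. It was 69.3 ± 5.14 CPM in microglia-like cells (n = 3, from 23 UMIs over all cells of the type), 65.9 ± 23.3 CPM in pericyte-like cells (n = 5), 37.7 ± 11.8 CPM in endothelial-like cells (n = 7) and 24.0 ± 9.76 CPM in fibroblast-like cells (n = 6). In pericyte-like cells S02, S03, S06, S08 and S09 had 42.1, 79.9, 99.2, 57.7 and 50.5 CPM. Ganglion-like cells had 23.4 ± 4.76 CPM (n = 8) and rod-like cells 1.25 ± 0.548 CPM (n = 9). No pair of neighbours in the order of *Trpm4* passed the exact permutation test after adjustment. *Trpm5* had at most 1.38 CPM in any type, in endothelial-like cells, and no UMI in ON cone bipolar-like, starburst amacrine-like, microglia-like or pericyte-like cells. The 0 of 1033 ON cone bipolar-like cells bounds that share at 0.290%.

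*Trpm6* and *Trpm7*, the channel-kinases, shared RPE-like and endothelial-like cells as their highest types by mean level. *Trpm6* was 18.1 ± 12.6 CPM in endothelial-like and 14.8 ± 8.66 CPM in RPE-like cells (SD, n = 7 each). In RPE-like cells S01, S02 and S03 had 14.0, 29.9 and 16.3 CPM, and S06, S08 and S09 had 14.6, 14.3 and 14.7 CPM, while S07 had none. The next type, rod bipolar-like cells, had 5.31 ± 3.09 CPM. *Trpm7* was found in every type, at 395 ± 50.1 CPM in RPE-like, 283 ± 27.6 CPM in endothelial-like, 228 ± 10.8 CPM in rod-like and 126 ± 12.8 CPM in horizontal-like cells. In RPE-like cells the control mice had 370, 404 and 399 CPM and the dKO mice 357, 323, 442 and 469 CPM of *Trpm7*. The values of 6 of 7 mice were above the highest endothelial-like value, 340 CPM, and only S07 was below it. No pair of neighbours in the order of *Trpm6* or *Trpm7* passed the exact sign-flip permutation test after adjustment. The adjusted p was 0.234 for RPE-like against endothelial-like cells in *Trpm7* and 0.352 for RPE-like against rod bipolar-like cells in *Trpm6*.

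The members called in a type were counted against the share of all 17040 genes called in the same contrast, with edgeR's quasi-likelihood test and an adjusted p of 0.05. The count covers 5 members, since *Trpm2* was set aside and *Trpm5* did not pass the filter on low counts. A gene at 0 in some type is affected in the same way within the shares of all genes. For *Trpm1* and *Trpm3*, the types rich in them raise the mean of the others. A type at a low level can thus be called lower without standing out among the low types. RPE-like cells were higher than the mean of the others in 4 of 5 members, *Trpm1*, *Trpm3*, *Trpm6* and *Trpm7* (log2 differences of 0.76, 5.80, 3.24 and 1.31), and 31.4% of all genes were higher there. *Trpm4* was lower in RPE-like cells (-1.24), against 21.2%. Rod bipolar-like cells were higher in *Trpm1* (6.67) and *Trpm6* (1.33), against 29.8% of all genes, and lower in *Trpm3* (-1.72), against 19.9%. ON cone bipolar-like cells were higher in *Trpm1* alone (4.76), against 30.3%, and lower in *Trpm3* (-2.07), against 16.6%. OFF cone bipolar-like cells were lower in *Trpm4* (-0.86), against 15.8%. They were higher in *Trpm1* (3.23), *Trpm3* (2.05) and *Trpm6* (1.10), against 30.8%, but the *Trpm6* call was lost without S06 (0.02, adjusted p = 1), where 1 cell held 52 of 65 *Trpm6* UMIs, and with DESeq2, limma-voom, the stricter gate or without the 5% of cells richest in UMIs (0.11 to 0.84).

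Horizontal-like cells, the lateral interneurons of the outer retina, were lower in all 5 members, *Trpm1* (-1.13), *Trpm3* (-1.15), *Trpm4* (-1.51), *Trpm6* (-1.88) and *Trpm7* (-0.48), against 17.1% of all genes. The *Trpm6* call there (adjusted p = 0.0448) was lost without S01, S02, S06, S07, S08 or S09, one at a time (adjusted p of 0.0634 to 1), and without S04, S05 and S07 together (0.0772). Rod-like cells were lower in *Trpm1* (-0.76), *Trpm3* (-1.49), *Trpm4* (-3.16) and *Trpm6* (-1.20), against 23.1%, and higher in *Trpm7* (0.21), against 36.0%. Of these, *Trpm7* turned to -0.000453 with DESeq2, *Trpm1* was lost with the stricter gate (-0.46, adjusted p = 0.0582), and *Trpm6* was lost without S02 (-0.58), without S08 (-0.67) and without S04, S05 and S07 (-0.89). Cone-like cells were lower in *Trpm1* (-1.03), *Trpm3* (-2.11) and *Trpm4* (-1.92), against 19.6%. *Trpm3* and *Trpm4* were thus lower in both photoreceptor types than the mean of the others.

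In the inner retina the members differed by type. Ganglion-like cells were higher in *Trpm3* (2.11) and *Trpm4* (1.27), against 35.9% of all genes, and lower in *Trpm1* (-1.31) and *Trpm7* (-0.35), against 18.3%. GABAergic amacrine-like cells were higher in *Trpm3* (1.92), against 37.8%, and lower in *Trpm6* (-0.99), against 16.3%, a call that was lost without S01, S02, S03, S07 or S08 (adjusted p of 0.0544 to 1). Glycinergic amacrine-like cells were higher in *Trpm3* (0.61), against 32.9%, and lower in *Trpm1* (-1.16) and *Trpm4* (-0.52), against 16.8%. Starburst amacrine-like cells, the cholinergic cells of direction selectivity, were lower in *Trpm1* (-2.14) and *Trpm3* (-2.09), against 15.1%, so that the amacrine-like types did not share a direction in *Trpm3*. Müller glia-like cells were higher in *Trpm3* (4.12) and *Trpm4* (0.54), against 37.4%, and lower in *Trpm1* (-0.87) and *Trpm7* (-0.37), against 17.8%.

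Vascular-like and fibroblast-like cells were higher in *Trpm4* and lower in both hosts than the mean of the others, which the types rich in the hosts raise. Endothelial-like cells were higher in *Trpm4* (1.85), *Trpm6* (3.23) and *Trpm7* (0.49), against 27.2% of all genes, and lower in *Trpm1* (-1.34) and *Trpm3* (-2.44), against 19.7%. Pericyte-like cells were higher in *Trpm4* (2.46) and lower in *Trpm1* (-1.81) and *Trpm3* (-2.44), against 14.3% in either direction. Fibroblast-like cells were higher in *Trpm4* (1.41) and *Trpm7* (0.16), against 29.9%, and lower in *Trpm1* (-1.53) and *Trpm3* (-1.03), against 22.9%. The *Trpm7* call was lost with the stricter gate (0.10, adjusted p = 0.271) and without S02, S05 or S09 (adjusted p of 0.0524 to 0.0704). Microglia-like cells were higher in *Trpm4* (2.21), against 12.2%, a call that was lost with the stricter gate (1.75, adjusted p = 0.222), and lower in *Trpm7* (-0.49, adjusted p = 0.0270), against 14.5%, which did not keep its sign with DESeq2 (0.0095) or without TMM normalization (0.10) and was lost without S01, S02, S03, S04 or S08 (adjusted p of 0.0510 to 0.315). The median log2 difference over all genes was -0.36 in pericyte-like and -0.83 in microglia-like cells, against -0.09 to 0.13 in the other 14 types. With shares of this size, the counts alone say little about the members.

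Between chosen pairs of types, 6 members could be tested. RPE-like and Müller glia-like cells differed in 6 of 6 members, against 57.7% of all genes, with *Trpm1*, *Trpm3*, *Trpm6* and *Trpm7* higher in RPE-like cells and *Trpm2* and *Trpm4* higher in Müller glia-like cells. RPE-like and ON cone bipolar-like cells differed in 6 of 6, against 61.5%, of which *Trpm4* (-0.99, adjusted p = 0.00144) was lost without S06 (-0.63, adjusted p = 0.0745). RPE-like and rod-like cells differed in 5 of 6, against 64.8%. Müller glia-like and rod-like cells differed in 4 of 6, against 70.2%, rod bipolar-like and OFF cone bipolar-like cells in 3 of 6, against 37.9%, and ON and OFF cone bipolar-like cells in 4 of 6, against 20.2%. Among these 4, the call of *Trpm4* (0.64, SE 0.23, adjusted p = 0.0344, edgeR) was lost without the block for mouse (0.62, adjusted p = 0.0645), with the stricter gate (0.45, adjusted p = 0.322), without S04, S05 and S07 (adjusted p = 0.0646) and without S01, S02, S03, S04, S06 or S09, one at a time (adjusted p of 0.0569 to 0.149). *Trpm7* differed between RPE-like and Müller glia-like cells by a log2 difference of 1.57 (SE 0.07, adjusted p = 8.17e-40) and did not pass between the bipolar-like types (0.01, 95% interval -0.13 to 0.15, between ON and OFF cone bipolar-like cells).

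The partners of the channels were described from 4 lists of genes. The mGluR6 cascade list held 16 genes chosen around the signal from the glutamate receptor to TRPM1. It included 3 markers of the bipolar gates, *Grm6*, *Gpr179* and *Prkca*, which were left out of the counts between types. Of the other 13 genes, 11 were higher than the mean of the other types in rod bipolar-like cells, against 29.8% of all genes (median log2 difference 3.20, against 0.02 over all genes). In ON cone bipolar-like cells 11 of 13 were higher, against 30.3% (1.93 against 0.05), and in OFF cone bipolar-like cells 9 of 13, against 30.8% (0.62 against 0.07). Among the 13 were *Pcp2*, *Gng13*, *Nyx*, *Lrit3* and *Gnb3*, which had been picked to check the rod bipolar or ON cone bipolar gate. The counts in those types thus depend in part on that choice. *Grm6* was 477 ± 110 CPM in rod bipolar-like and 480 ± 81.9 CPM in ON cone bipolar-like cells, while *Trpm1* was 8271 and 2503 CPM in the same types. *Gpr179*, the orphan receptor that holds the RGS complex at the dendritic tip, was 971 ± 127, 505 ± 43.5 and 137 ± 43.3 CPM in rod bipolar-like, ON cone bipolar-like and OFF cone bipolar-like cells. *Rgs7*, a GTPase-activating protein of the cascade, was 4763 ± 302 CPM in rod bipolar-like cells and 803 ± 122 CPM in ON cone bipolar-like cells (SD, n = 9). The levels of the markers *Grm6* and *Gpr179* are no finding.

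The transcription factor list held 8 genes, of which 7 were tested and 4 were higher in RPE-like cells, against 31.4% of all genes (median log2 difference 1.27 against -0.01 over all genes). *Mitf*, a master regulator of pigment cells, was 694 ± 123 CPM and *Otx2*, a factor of photoreceptors, bipolar cells and RPE, 400 ± 55.0 CPM in RPE-like cells (SD, n = 7). *Sox10*, a neural crest factor, was 43.2 ± 22.7 CPM and *Tfeb*, a lysosomal regulator, 23.2 ± 13.1 CPM. *Otx2* was also higher in the bipolar-like types, at 260 ± 33.8 CPM in rod bipolar-like and 316 ± 31.1 CPM in ON cone bipolar-like cells (n = 9). In Müller glia-like cells *Pax6*, an eye field factor, was 721 ± 143 CPM. In RPE-like cells the mGluR6 cascade was higher for 3 of 13 genes without the gate markers, against 31.4% of all genes, among them *Lrit3* at 161 ± 53.6 CPM, with a median log2 difference of -0.46 over the 13.

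Of the magnesium transport genes, 6 of 13 were higher and 5 lower in RPE-like cells than in the mean of the others, against 31.4% and 21.2% of all genes (median log2 difference 0.11, against -0.01 over all genes). Those higher were *Slc41a1* (74.6 ± 23.4 CPM), *Slc41a2* (38.0 ± 15.8), *Magt1* (38.9 ± 19.6), *Mrs2* (92.5 ± 10.6), *Nipa1* (39.7 ± 21.0) and *Nipa2* (25.9 ± 12.2; SD, n = 7). *Slc41a1* encodes a sodium and magnesium exchanger and *Mrs2* the mitochondrial magnesium channel. Among 21 other TRP channels, 13 passed the filter and 2 were higher in RPE-like cells, against 31.4% of all genes, *Trpv4*, an osmosensitive channel, at 64.8 ± 10.4 CPM and *Pkd2l2* at 6.06 ± 3.92 CPM. In ON cone bipolar-like cells 1 of 13 was higher, against 30.3%, *Trpc4* at 266 ± 26.4 CPM, and in OFF cone bipolar-like cells *Trpc7* was 93.8 ± 19.8 CPM and *Trpc4* 65.3 ± 22.6 CPM. The count was highest in GABAergic amacrine-like cells, with 8 of 13 against 37.8%. *Trpc1* was 243 ± 53.1 CPM in rod bipolar-like and 157 ± 12.1 CPM in Müller glia-like cells.

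The genes most like each member over the 16 types were found by Pearson's r of the mean log2(CPM + 1) among 14314 genes, excluding the members and the gate markers. The points share libraries and depth, and r is given as a description. *Trpm1* was most like *Dbhos* (r = 0.98), *Gm5478* (0.98), *Gm9195* (0.96), *Gm20754* (0.96) and *Mypn* (0.96), all highest in rod bipolar-like cells, of which *Gm20754* reached 3724 CPM. *Trpm3* was most like *Gm15155* (0.90), *Idi1* (0.86), *Ccbe1* (0.86), *Folr1* (0.85) and *Tlcd4* (0.85). For *Trpm7* the nearest was *Stx5a* (0.90), for *Trpm6* *Mfsd2a* (0.87), for *Trpm4* *Mapk7* (0.92) and for *Trpm2* *Scoc* (0.93).

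Whether loss of both microRNAs changed their hosts or the other channels was asked by comparing dKO with control mice within each type. No member was called in any of the 15 types that could be fitted, over 65 tests of a member in a type with edgeR's quasi-likelihood test (smallest adjusted p = 0.979). The share of all genes called was 0% in 14 types and 0.0315% in RPE-like cells (3 of 9521). Microglia-like cells had 1 control mouse with enough cells and were not tested. Of the 65 estimates, 35 were above and 30 below 0, with a median log2 fold change of 0.03, and 45 were within 0.2 of 0. At an unadjusted p below 0.05, 2 of 65 passed, both for *Trpm1*, in horizontal-like and endothelial-like cells. At that threshold 278 of 8453 genes passed in horizontal-like and 254 of 6693 in endothelial-like cells. After adjustment, DESeq2 and limma-voom called 0 members as well.

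In RPE-like cells, where the deletion is driven, *Trpm3* was 17782 ± 1647 CPM in control (SD, n = 3) and 17826 ± 6798 CPM in dKO mice (SD, n = 4). The log2 fold change was -0.01 (SE 0.46, 95% interval -0.97 to 0.95, adjusted p = 1, edgeR), and S07 widened the spread. Without S07 the dKO mean was 20863 ± 3735 CPM and the log2 fold change 0.26, and without S08 it was -0.26, so that the sign was not fixed. The sums of cells within each of the 8 sublibraries, which weight mice by their cells, gave log2 ratios of 0.12 to 0.40. *Trpm1* was 170 ± 103 CPM in control and 155 ± 93.6 CPM in dKO mice, and edgeR gave a log2 fold change of 0.10 (SE 0.37, 95% interval -0.68 to 0.87, adjusted p = 1), with -0.41 without S06 and 0.52 without S02. *Trpm7* changed by 0.07 (SE 0.21, 95% interval -0.36 to 0.51) and *Trpm6* by -0.37 (SE 0.33, 95% interval -1.05 to 0.32), and neither passed.

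In the types rich in the hosts the intervals were narrower. *Trpm1* changed by -0.09 in rod bipolar-like (SE 0.08, 95% interval -0.26 to 0.09), by -0.07 in ON cone bipolar-like (SE 0.09, -0.26 to 0.11) and by -0.16 in OFF cone bipolar-like cells (SE 0.16, -0.49 to 0.17). *Trpm3* changed by -0.01 in Müller glia-like (SE 0.11, -0.24 to 0.22), by -0.03 in OFF cone bipolar-like (SE 0.11, -0.25 to 0.20) and by 0.04 in GABAergic amacrine-like cells (SE 0.08, -0.13 to 0.22). Within sublibraries, the log2 ratio of *Trpm1* ran from -0.10 to 0.08 in rod bipolar-like and from -0.18 to 0.15 in ON cone bipolar-like cells. That of *Trpm3* ran from -0.09 to 0.10 in Müller glia-like cells. None of these differences passed the test, and the intervals in RPE-like cells, with 3 control and 4 dKO mice, were wider than these.

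**Figure D5:**
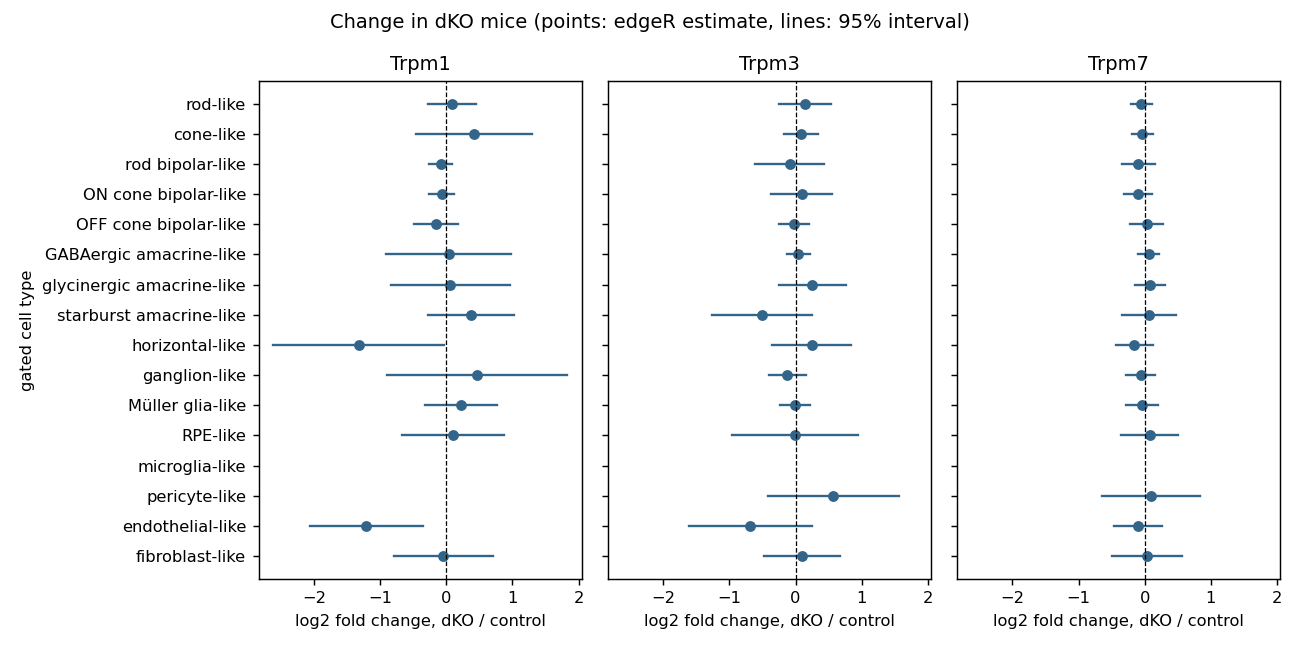
Log2 fold change of *Trpm1*, *Trpm3* and *Trpm7* in dKO against control mice for each gated cell type (rows), as edgeR estimates (points) with 95% intervals (lines). Types without a point were not tested or did not pass the filter. All intervals include 0 but for *Trpm1* in horizontal-like (-1.33) and endothelial-like cells (-1.21), neither of which passed after adjustment.

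The pair of unadjusted results concerned *Trpm1* in types where it was near the floor. In horizontal-like cells S01, S02 and S03 had 22.2, 178 and 27.2 CPM, and S06, S07, S08 and S09 had 21.2, 20.1, 39.9 and 41.6 CPM. S02 alone was high, and 1 of its 50 cells held 162 of its 329 *Trpm1* UMIs together with 599 *Prkca* UMIs. The log2 fold change was -1.33 (SE 0.59, unadjusted p = 0.0446, adjusted p = 1, edgeR) and the exact permutation p on CPM was 0.4. In endothelial-like cells the control mice had 88.4, 119 and 32.9 CPM and the dKO mice 28.4, 29.9, 37.6 and 43.6 CPM, with a log2 fold change of -1.21 (SE 0.38, unadjusted p = 0.0103, adjusted p = 0.996, edgeR; exact permutation p = 0.0857). In S01 and S02, 1 cell each held 33 of 64 and 27 of 43 UMIs, and the part of these cells in the result was not tested.

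The dKO change was compared between RPE-like and other cells by an exact permutation of the mouse labels over 3 control and 4 dKO mice, two-sided, with a smallest possible p of 0.0286. For *Trpm3* the log2 level in RPE-like minus Müller glia-like cells was 1.44 in control and 1.32 in dKO mice, a difference of -0.12 (exact p = 0.943, adjusted over 3 comparisons 1). For *Trpm1* against rod bipolar-like cells the difference was -0.04 (exact p = 1) and against ON cone bipolar-like cells -0.06 (exact p = 0.914). None of the 4 lists held a gene called in dKO mice in any type. In RPE-like cells the median log2 fold change was -0.10 over 5 other TRP channels, 0.20 over 11 genes of the mGluR6 cascade, 0.02 over 12 magnesium transport genes and -0.21 over 6 transcription factors, against -0.01 over all 9521 genes. In rod bipolar-like cells the mGluR6 cascade had a median of 0.03 over 16 genes, against 0.001 over all 10082 genes.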

How the data were processed

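The deposited values are raw UMI counts per gene and cell, which the authors made from split-pool (Parse Evercode) libraries in 8 sublibraries with split-pipe on the mouse genome GRCm39; the notes of the submitters also name R 4.2.2 and Seurat 4.3.0. The authors also removed cells with few genes and genes found in few cells. Total counts were 15079143 to 66528160 per mouse. Members, gene lists, marker sets and tests were chosen with earlier results of these data known.

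Cells were gated on 5 markers per type, at 40% of the reference marker level with at least 2 markers detected. Cells that passed several gates (997) or none (1600), and 736 unsplit bipolar or amacrine cells, were left out. No doublet caller was run, and whether doublets remained among the gated cells was not tested. Counts were summed per mouse and type, for mice with at least 10 cells. Types and dKO were tested with edgeR 4.0.16 (R 4.3.3, TMM, filterByExpr, quasi-likelihood, Benjamini-Hochberg over all genes, threshold 0.05), with mouse as a replicate block between types, since all types of a mouse come from the same libraries. Neighbours were tested on log2(CPM + 1), a scale that understates differences of low genes. DESeq2 1.42.0, limma 3.58.1, Python 3.11.15 and scipy 1.17.1 were also used. Named genes were the 7 members in every type and, from each list, genes past the threshold. Tests were checked on simulated data. Clopper-Pearson intervals and limits from a count of 0 cover counting error only, while the intervals of edgeR include the spread between mice. *Tacr3* and the *Trpm1* limits were chosen after the values were seen.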

Additional observations from a re-analysis of the deposited data

Results flagged for a closer look

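In 7 of 75 groups of mice, the highest or lowest level of a *Trpm* gene lay far from the others by Dixon's criterion, which chance meets in about 1 of 20 groups (3.75 of 75). Among dKO mice, *Trpm1* in cone-like cells was 212 CPM in S05, where 1 cell held 142 of 213 UMIs and 73.4 CPM remained without it. *Trpm1* in ganglion-like cells was 165 CPM in S07, where 1 cell with 399 *Prkca* UMIs held 216 of 540, and 103 CPM remained without it. *Trpm3* in glycinergic amacrine-like cells was 1396 CPM in S05, where 24 cells were gated. *Trpm1* in ON cone bipolar-like cells was lowest in S05, at 2151 CPM. *Trpm6* in RPE-like cells was 0 CPM in S07, which had 11 such cells. Among control mice, *Trpm4* in Müller glia-like cells was 16.2 CPM in S01 and *Trpm7* in Müller glia-like cells 189 CPM in S04, where 26 cells were gated.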

How the results depend on the processing

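No *Trpm* gene was called in dKO mice under any alternative run, leaving out each mouse in turn included (0 to 0), except with no filter on low counts, which called 2: *Trpm1* in horizontal-like cells (-1.35, adjusted p = 1.48e-07) and in endothelial-like cells (-1.15, adjusted p = 0.0430). Over all genes, that setting called 99 in horizontal-like and 158 in endothelial-like cells, against 0 in each with the filter. The cause of the 2 *Trpm1* calls was not tested. The sign of the member fold changes was opposite to the reported one in 135 of 1201 alternatives (11.2%). Over all genes in RPE-like cells, the 3 calls became 73 with no filter, 0 with DESeq2, limma-voom, the stricter gate or without S07, 18 without S02, 27 without S06, 16 without S08 and 13 without S09.

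Between types, *Trpm7* reversed in microglia-like cells against the mean of the others, from -0.49 to 0.0095 with DESeq2 and to 0.10 with library size without TMM, and in rod-like cells from 0.21 to -0.000453 with DESeq2. Leaving out a mouse gave 51 to 59 calls against the mean of the others (56 reported) and 27 to 28 between chosen types (28 reported). Without the replicate block the counts were 57 and 28, with *Trpm4* between ON and OFF cone bipolar-like cells lost (0.62, adjusted p = 0.0645) and *Trpm6* between Müller glia-like and rod-like cells (0.93, adjusted p = 0.0477) and in cone-like cells against the mean of the others (-1.07, adjusted p = 0.0419) gained. No paired analysis was possible because control and dKO mice share no replicate number. Leaving out S04, S05 and S07, chosen after seeing the data, gave 58, 27 and, in dKO mice, 0 calls. RPE-like cells, with 3 control and 4 dKO mice, and the low counts of *Trpm2*, *Trpm4*, *Trpm5* and *Trpm6* limit what these data can show.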
